A study of Mus musculus with 18 samples.

Results

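MYC occupancy was described at 46 genes of the cell cycle and of replication licensing, out of 21883 protein-coding genes on the chromosomes used, in liver tumours of FVB mice. The 46 genes are a named list of cyclins (8), cyclin-dependent kinases (CDKs, 5), E2F factors (5), CDC25 phosphatases (3), licensing and replication factors (12), CDK inhibitors (6), the RB family with p53 (4), and the CKS proteins with SKP2 (3). A gene was counted as bound in a library when the summit of a MYC peak lay within 1 kb of either end of its RefSeq span on mm10, and the same was repeated within 5 kb. All 46 genes were found in the annotation.

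Chromatin immunoprecipitation with a MYC antibody was sequenced from frozen tumours of 3 genotypes, with 3 MYC libraries each. Homo tumours carried LAP-tta, TRE-MYC, Alb-cre and Arid1a fl/fl, and came from mice about 100 days old. Het tumours carried LAP-tta, TRE-MYC, Alb-cre and Arid1a fl/+, at about 70 days. WT tumours carried LAP-tta, TRE-MYC and Arid1a fl/fl without Alb-cre, at about 55 days. All 3 groups therefore carried the MYC transgene, which is switched on in the liver when doxycycline is withdrawn, and tumours were taken at death. Alb-cre acts in cells that use the albumin promoter, so Arid1a of other cells in the tumour is not targeted. Age changed together with Arid1a in every comparison, and Cre in the comparisons with WT, since Het and Homo tumours both carried Alb-cre. In each comparison the parts of what changed together cannot be told apart. Whether the 3 libraries of a genotype stem from different mice is not stated in the labels, so a p-value here covers the spread among these libraries alone, and that spread may be technical.

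Cyclins bind and activate CDKs, which drive entry into S phase and mitosis; RB-family proteins hold E2F factors in check until CDKs phosphorylate them, and CDK inhibitors oppose this step. Licensing loads the MCM helicase onto replication origins before S phase, through ORC, CDC6 and CDT1, and geminin blocks CDT1 afterwards. MYC is a transcription factor that binds DNA with MAX at E-boxes, of which CACGTG is the canonical form, and it is known to promote the cycle from G1 to S phase. Adult hepatocytes mostly rest outside the cycle, and MYC-driven liver tumours proliferate.

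The peak lists differed widely in length. They held 112, 51 and 303 peaks in Homo replicates 1 to 3, 1713, 1869 and 378 in Het, and 92, 1567 and 4291 in WT. Peaks near gene ends made up 15.2% of the list of WT replicate 1 and 17.6% of that of Homo replicate 2, the lowest shares, against 43.9% to 64.4% in the other libraries. The lists give no read depth. MYC peaks do not measure Arid1a, so the deletion was not checked here. Among marker genes of other cell types, 0 of 18 genes of immune, endothelial, stellate and bile duct cells had a peak within 1 kb, where 14.9% of all genes had one in any library. In bulk tumour tissue, binding in fewer cells and less binding per cell cannot be told apart.

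Within 1 kb, 9 of the 46 genes were bound in at least 2 of the 9 libraries, compared with 8.03% of all protein-coding genes. They were Ccne2 in 6 libraries, E2f5, Cdt1 and Cks2 in 4, Cdk4 and Cks1b in 3, and Cdk7, Mcm6 and Mcm7 in 2. Cdk6 and E2f1 were bound in 1 library, WT replicate 3, so that 11 genes had a peak in any library, where 14.9% of all genes did. Members bound in at least 4 libraries numbered 4, against 3.03% of genes. The median gene was bound in 0 libraries, both among the members and among all genes. Within 5 kb the members bound in at least 2 libraries numbered 13, where 11% of all genes met the rule, and those bound in any library numbered 17, where 19.9% did.

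Between libraries the number of bound members differed widely. Homo replicates 1 to 3 had 0, 0 and 1 bound members, where 0.324%, 0.0548% and 0.919% of all genes were bound. Het replicates 1 to 3 had 8, 5 and 1, where 5.58%, 6.14% and 0.855% were bound. WT replicates 1 to 3 had 0, 6 and 11, where 0.0731%, 4.86% and 14.1% were bound. The 4 longest lists, of Het replicates 1 and 2 and WT replicates 2 and 3, thus held nearly all of the binding at these genes. In each of these 4 libraries, as in Homo replicate 3 and Het replicate 3 with 1 member each, the share of members exceeded the share of all genes. It was 17.4% and 10.9% in Het replicates 1 and 2 and 13% and 23.9% in WT replicates 2 and 3. Within 5 kb, Homo replicates 1 to 3 had 0, 1 and 1 bound members, where 0.526%, 0.123% and 1.34% of genes were bound. Het replicates had 10, 9 and 1, where 7.86%, 8.67% and 1.33% were, and WT replicates had 0, 9 and 17, where 0.137%, 6.92% and 18.6% were. These shares describe a chosen list, and no set test was made.

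**Figure D1:**
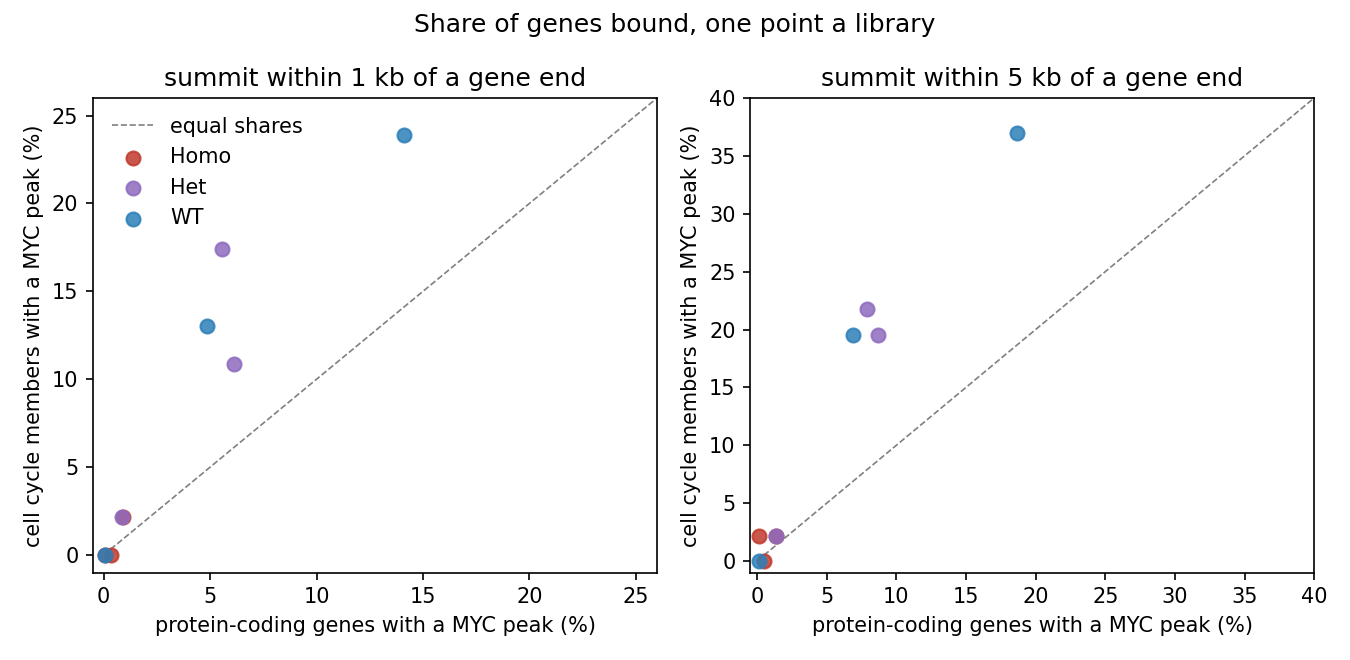
Share of the 46 cell cycle members with a MYC peak (y axis, percent) against the share of all protein-coding genes with one (x axis, percent), one point a library, for summits within 1 kb (left) and 5 kb (right) of a gene end; the dashed line marks equal shares. Het replicates 1 and 2 and WT replicates 2 and 3 lie farthest above the line; Homo replicate 3 and Het replicate 3, each with 1 member (2.17%) in both panels, and Homo replicate 2 at 5 kb (2.17%) also lie above it, near the lower left.

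Among the cyclins, Ccne2 alone of 8 was bound within 1 kb. It encodes cyclin E2, which activates CDK2 at the G1 to S transition. Ccne2 spans chr4:11190433-11204779, and its summits lay inside the gene, 741 bp from the lower-coordinate end in Homo replicate 3, at 738, 732 and 773 bp in Het replicates 1 to 3, and at 545 and 790 bp in WT replicates 2 and 3. The authors' fold over background at this peak was 4.79 in Homo replicate 3, 7.04, 8.01 and 5.22 in Het, and 9.05 and 5.71 in WT replicates 2 and 3. Folds are the authors' values within each list and are not compared between lists. By the rank of its −log10 p within its own list, the peak stood at percentile 23.8 in Homo replicate 3, at 75.4, 80.8 and 21.8 in Het, and at 86.2 and 79.5 in WT. It was thus among the stronger peaks of the 4 long lists and among the weaker ones of the 2 shorter lists that held it. Only 0.521% of protein-coding genes were bound in at least 6 libraries, and Ccne2 was the member among them. The end of a long noncoding RNA gene, A630034I12Rik, also lies within 1 kb of the 6 summits.

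No summit lay within 5 kb of Ccna2, Ccnb1, Ccnb2, Ccnd2 or Ccne1, the genes of cyclins A2, B1, B2, D2 and E1. Ccnd1 and Ccnd3, of the D-type cyclins that partner CDK4 and CDK6, gained a call only at 5 kb and only in WT replicate 3. At Ccnd1 these were 2 summits, 1571 and 3606 bp beyond the upper end, with folds of 5.41 and 6.85. The Ccnd3 summit, 2700 bp upstream of its start, lay at -60 bp from the annotated start of the neighbouring Taf8 (negative positions are upstream).

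**Figure D2:**
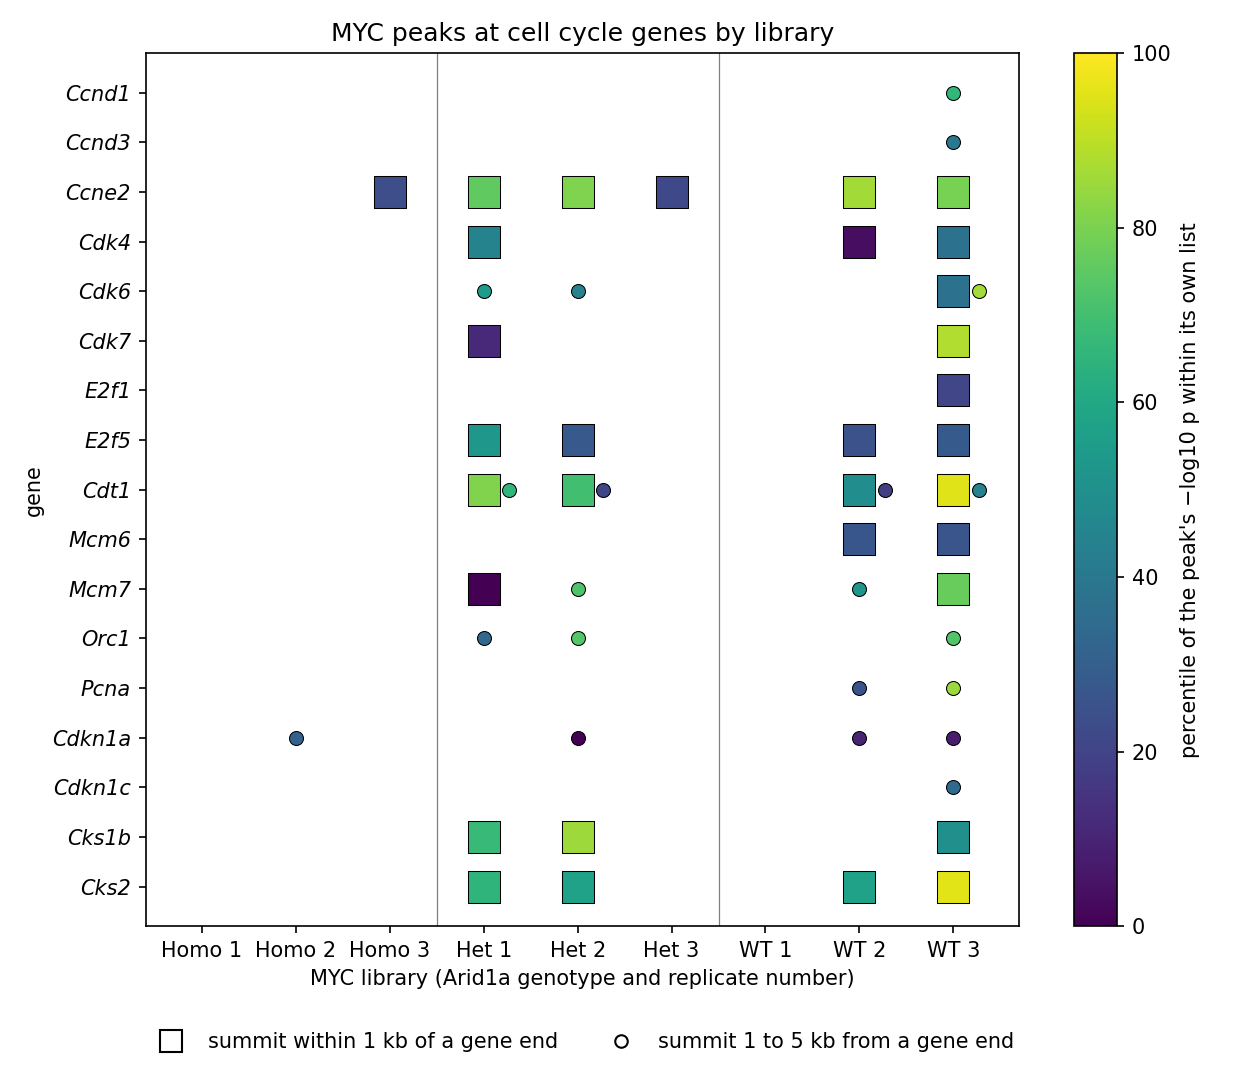
MYC peaks at the 17 members with a summit within 5 kb of a gene end (rows) in the 9 libraries (columns, ordered Homo, Het, WT). Squares mark summits within 1 kb and circles those between 1 and 5 kb, coloured by the percentile of the strongest such peak's −log10 p within its own list; Ccne2 has squares in 6 libraries, while the columns of Homo replicate 1 and WT replicate 1 are empty.

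Of the 5 CDK genes, Cdk4, Cdk7 and Cdk6 were bound, and Cdk1 and Cdk2 had no summit within 5 kb. CDK4, the G1 kinase that pairs with D-type cyclins, is shown first by its promoter because 4 copies of CACGTG stand in it. The windows printed here run from 250 bases before to 50 after the annotated start, from RefSeq on GRCm38.p6, read 5′ to 3′ on the gene's strand. Capitals mark CACGTG, or, for the CKS genes further on, the variant CACGCG on either strand.
Cdk4, chr10:127063285-127063584, + strand: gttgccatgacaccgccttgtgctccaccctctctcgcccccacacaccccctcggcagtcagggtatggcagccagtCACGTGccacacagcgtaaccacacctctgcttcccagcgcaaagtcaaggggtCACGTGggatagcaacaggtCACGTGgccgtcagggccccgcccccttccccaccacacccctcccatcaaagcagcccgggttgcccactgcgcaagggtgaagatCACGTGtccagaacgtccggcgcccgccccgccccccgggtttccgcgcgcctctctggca
Cdk7, chr13:100730893-100731192, - strand: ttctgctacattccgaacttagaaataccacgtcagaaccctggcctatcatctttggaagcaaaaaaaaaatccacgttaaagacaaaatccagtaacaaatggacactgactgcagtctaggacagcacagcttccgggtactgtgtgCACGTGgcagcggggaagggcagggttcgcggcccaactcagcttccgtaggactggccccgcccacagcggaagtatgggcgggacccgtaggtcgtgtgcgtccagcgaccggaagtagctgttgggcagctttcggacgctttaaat
In the Cdk4 window the first bases of the 4 copies stand at -172, -118, -98 and -11 from the start. A window with 4 or more copies was found for 5 of 17491 protein-coding genes that have one in the table. The Cdk4 summits lay 113 bp downstream of the start in WT replicate 2 and 139 bp in WT replicate 3, with folds of 3.95 and 5.58. The copy nearest the start fell inside both of these peaks, 119 and 145 bp from the summits. The other 3 copies fell outside them. At percentile 3.29 in WT replicate 2 and 37.6 in WT replicate 3, these were weak peaks of their lists. In Het replicate 1 the Cdk4 call came from another site, 519 bp inside the upper end, with a fold of 6.34, and this summit is also within 1 kb of an end of Tspan31. No library thus had both Cdk4 sites.

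Cdk7 encodes the kinase of the CDK-activating complex, which is also part of the transcription factor TFIIH. Its summits lay 61 bp upstream of the start in Het replicate 1 and 81 bp upstream in WT replicate 3. The CACGTG of the printed window begins at -100 from the start, 34 bp from the Het summit and 14 bp from the WT summit, inside both peaks. The fold was 3.84 in Het replicate 1 and 9.56 in WT replicate 3, at percentiles 11.3 and 87.9 of those lists.

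Cdk6, the other partner of D-type cyclins, had summits at several sites. The span end used by the rule is not the annotated start of Cdk6. WT replicate 3 had summits at 547, 1236, 1927 and 3490 bp from the lower end, of which the first alone is within 1 kb. Het replicate 2 had summits at 1234, 1848 and 3487 bp, and Het replicate 1 had 1 at 1836 bp. Against the annotated start of Cdk6, the farthest of these lay 598 bp downstream in Het replicate 2 and 601 bp downstream in WT replicate 3. The strongest, at percentile 86.6 of WT replicate 3 with a fold of 11.5, lay at -962 bp from that start. The noncoding gene Gm36470 has starts within 1 kb of all of these summits. Counted from annotated starts, Cdk6 was bound in 2 libraries.

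In the E2F family, E2f5 was bound in 4 libraries and E2f1 in 1. E2F5 is a repressor-type member that works with RB-family proteins, and E2F1 is an activator of S-phase genes. The E2f5 summits lay 213 and 129 bp inside the lower end in Het replicates 1 and 2, and 221 and 161 bp inside it in WT replicates 2 and 3. The folds were 6.91 and 6.31 in Het and 6.42 and 4.48 in WT, with percentiles between 25.0 and 53.3, so that this peak was of middling or low rank wherever it was listed. E2f1 had a summit in WT replicate 3 alone, 181 bp inside the upper end, with a fold of 6.24 at percentile 20.9. E2f2 had a summit within its span in WT replicate 3, 8685 bp from the nearer end. E2f3 and E2f4 had none within 5 kb.

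Of the 12 licensing and replication genes, Cdt1, Mcm6 and Mcm7 were bound within 1 kb. CDT1 brings the MCM helicase to the origin, and Cdt1 had the steadiest site of the 3. Its promoter is shown because each of the 4 summits lies inside it.
Cdt1, chr8:122567765-122568064, + strand: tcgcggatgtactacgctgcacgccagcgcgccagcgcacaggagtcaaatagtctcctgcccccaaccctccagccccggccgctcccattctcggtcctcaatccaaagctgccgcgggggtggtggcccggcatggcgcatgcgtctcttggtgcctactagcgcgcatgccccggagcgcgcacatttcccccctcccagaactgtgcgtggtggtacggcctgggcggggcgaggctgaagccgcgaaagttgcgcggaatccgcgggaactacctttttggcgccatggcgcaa
The summits lay 121 and 105 bp upstream of the Cdt1 start in Het replicates 1 and 2, and 111 and 118 bp upstream in WT replicates 2 and 3, all within 16 bp of each other. The folds were 6.66 and 6.70 in Het and 6.24 and 11.3 in WT, at percentiles 81.1 and 69.7 in Het and 48.6 and 94.98 in WT. Neither CACGTG nor CACGCG stands in this window, which says only that these letters are not there. In the same 4 libraries a second summit 3643 to 3733 bp beyond the upper end lay between 44 and 134 bp downstream of the start of Aprt, the neighbouring gene of adenine salvage.

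Mcm6 and Mcm7 encode subunits of the MCM2 to MCM7 helicase. Mcm6 was bound in no Homo and no Het library, and in WT replicates 2 and 3 its summits lay 146 and 120 bp downstream of the start. The folds were 6.16 and 5.75, and the percentiles 26.8 and 25.9, so the peak was in the lower part of both lists. Mcm7 falls on the edge of the rule. Its summits lay 967 bp (Het replicate 1) and 996 bp (WT replicate 3) from the upper end, just inside 1 kb, and 1042 bp (Het replicate 2) and 1047 bp (WT replicate 2), just outside. These 4 summits are 1 site, at most 80 bp apart, and lie between 122 and 202 bp downstream of the second annotated start of Mcm7. The Mcm7 folds were 3.22 and 8.24 in Het replicates 1 and 2 and 6.56 and 6.80 in WT replicates 2 and 3. Het replicate 1 held it as one of its weakest peaks, at percentile 0.234. The site stood at percentile 72.1 in Het replicate 2 and at 52.1 and 76.8 in WT replicates 2 and 3. An end of Ap4m1, a subunit gene of an adaptor complex, is also within 1 kb.

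Mcm10, whose product helps to activate the helicase, had a peak that the rule does not count. Its summit lay inside the gene, 16292 to 16324 bp downstream of the start, in Het replicates 1 to 3 and in WT replicates 2 and 3, all within 32 bp. The fold was 9.52, 14.0 and 6.04 in Het and 5.59 and 14.7 in WT, at percentiles 78.8, 94.0 and 34.4 in Het and 48.1 and 94.9 in WT. No end of another annotated gene lies within 1 kb of it. The site was thus listed in as many Het and WT libraries as Ccne2, and in 0 Homo libraries.

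Orc1, an origin recognition subunit, and Pcna, the sliding clamp of the replication fork, were reached only at 5 kb. The Orc1 site, in Het replicates 1 and 2 and WT replicate 3, had summits at -22, -18 and -49 bp from the start of Cc2d1b. WT replicate 3 had another summit, at -556 bp. The Pcna site, in WT replicates 2 and 3, had summits at -80 and -95 bp from the start of Tmem230. For Orc1, Pcna and Ccnd3 the wider window therefore counted a peak at the start of a neighbouring gene. Cdc6, Gmnn, Mcm2, Mcm3, Mcm4 and Mcm5 had no summit within 5 kb.

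**Figure D3:**
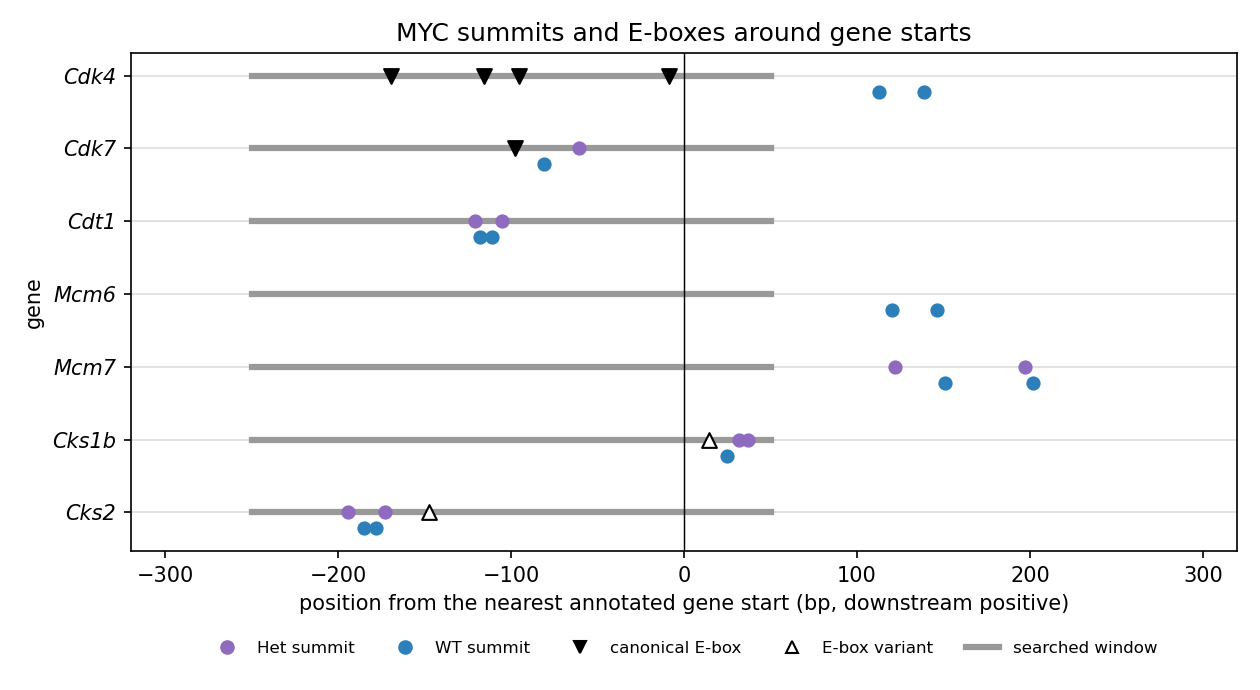
Positions of MYC summits (circles, Het purple and WT blue) from the nearest annotated start, in bp with downstream positive, at 7 members bound in at least 2 libraries that have a promoter window; filled triangles mark the canonical E-box and open triangles its variant within the searched window (grey bar). The Cdt1, Cdk7, Cks1b and Cks2 summits lie in the window, and those of Cdk4, Mcm6 and Mcm7 lie downstream of it. Sites over 300 bp from a start are not drawn, and no Homo summit falls in the range.

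None of the 6 CDK inhibitor genes among the 46 was bound within 1 kb in any library, where 14.9% of all genes were. Cdkn2d (p19), an inhibitor of the same kind outside the 46, was bound in 0 Homo, 2 Het and 1 WT libraries. Cdkn1a, which encodes p21, a target of p53, had a site at 5 kb instead. Its summits lay beyond the upper end, 3658 bp away in Homo replicate 2, 3790 bp in Het replicate 2, and 3635 and 3657 bp in WT replicates 2 and 3. The folds were 8.55 in Homo replicate 2, 4.92 in Het replicate 2, and 4.48 and 4.31 in WT. Homo replicate 2 has the shortest list of all, and the Cdkn1a peak stood at percentile 31.4 in it. The peak stood at 0.535 in Het replicate 2 and at 5.36 and 7.90 in WT replicates 2 and 3. Ranks in lists of such unequal length are not compared. WT replicate 2 had another summit there, 4675 bp away. No annotated gene end is within 1 kb of these summits. Cdkn1c (p57) had a summit 4015 bp beyond its upper end in WT replicate 3. Cdkn1b (p27), Cdkn2a (p16 and ARF), Cdkn2b (p15) and Cdkn2c (p18) had none within 5 kb. The RB family genes Rb1, Rbl1 and Rbl2, Trp53, and the CDK-activating phosphatase genes Cdc25a, Cdc25b and Cdc25c had none either. In all, 27 members had no summit inside the gene or within 5 kb of it in any library. Counted within 5 kb alone, 17 members (37%) had a summit in any library, where 19.9% of all genes did. Summits inside the span were not counted over all genes.

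The small CKS proteins bind CDKs, and CKS1B serves SKP2 in marking p27 for degradation. Cks1b and Cks2 were bound and Skp2 was not. The promoters of both are shown because the summits lie in them beside the capitals.
Cks1b, chr3:89418242-89418541, - strand: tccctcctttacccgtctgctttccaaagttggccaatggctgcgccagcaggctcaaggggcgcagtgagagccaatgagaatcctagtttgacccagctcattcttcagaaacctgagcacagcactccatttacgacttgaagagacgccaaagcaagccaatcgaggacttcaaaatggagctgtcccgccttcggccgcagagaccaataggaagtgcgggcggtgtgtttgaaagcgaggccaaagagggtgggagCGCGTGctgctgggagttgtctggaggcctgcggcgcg
Cks2, chr13:51644982-51645281, + strand: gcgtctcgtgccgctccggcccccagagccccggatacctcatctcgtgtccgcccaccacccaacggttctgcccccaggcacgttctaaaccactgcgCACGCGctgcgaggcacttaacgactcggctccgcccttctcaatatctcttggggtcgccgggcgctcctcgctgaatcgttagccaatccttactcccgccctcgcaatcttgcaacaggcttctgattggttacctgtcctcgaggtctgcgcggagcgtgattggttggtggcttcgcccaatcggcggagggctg
The Cks1b summits lay 32 and 37 bp downstream of the start in Het replicates 1 and 2 and 25 bp downstream in WT replicate 3. The variant begins at 12 downstream of the start, 15 and 20 bp from the Het summits and 8 bp from the WT summit. The Cks1b folds were 7.84 and 10.96 in Het and 5.08 in WT, at percentiles 67.3, 85.3 and 49.9. From the start of the neighbouring Shc1 the same summits stand at -292 and -297 bp in Het and -285 bp in WT, so the peak cannot be assigned to 1 of the 2 genes.

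The Cks2 summits lay 173 and 194 bp upstream of the start in Het replicates 1 and 2 and 178 and 185 bp upstream in WT replicates 2 and 3, within 21 bp of each other. The variant begins at -150 from the start, 23 and 44 bp from the Het summits and 28 and 35 bp from the WT summits. The folds were 5.86 and 6.41 in Het and 6.82 and 14.7 in WT. The percentiles were 65.0 and 57.6 in Het and 57.5 and 95.5 in WT. The value of WT replicate 3, 95.5, was the highest rank of any member's peak. A second site near the other end of Cks2, in Het replicate 2 and WT replicate 3, had summits at -94 and -105 bp from the start of Secisbp2.

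Of the 34 peaks that gave these calls within 1 kb, 22 had their summit inside the gene span. The annotated start was known for 24 of them, and 19 of these summits lay within 250 bp of it. The promoter table held a window for 35 of the 46 members. Ccna2, Ccnd1, Ccnd2, Ccne2, Cdc25c, Cdkn1c, E2f4, E2f5, Gmnn, Mcm4 and Rb1 had no entry. CACGTG stood in a window of 2 of the 7 members bound in at least 2 libraries (Cdk4 and Cdk7), and of 4 of the 28 other members with a window (Cdk6, Cdkn2c, E2f3 and Trp53). Over all protein-coding genes with a window the share was 8.91%, and it was 21.3% for genes bound in at least 2 libraries and 7.12% for genes bound in none. The variant CACGCG, sought on both strands after the data had been seen, was in a window of 2 of the same 7 members and of 3 of the 28 others (Cdkn1b, Cdkn2a and E2f3). Its share was 13.7% of all these genes, 34.5% of those bound in at least 2 libraries and 10.3% of those bound in none. The remaining bound members with a window, Cdt1, Mcm6 and Mcm7, had neither.

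The comparison of genotypes asks whether MYC occupancy of these genes differs with Arid1a. In Homo tumours 1 member, Ccne2, was bound in any library, where 1.03% of all genes were. In Het tumours 8 members were bound in any library, where 7.86% of genes were, and in WT tumours 11 members, where 14.3% of genes were. In at least 2 libraries of the genotype, 0 members were bound in Homo (0.238% of genes), 5 in Het (3.98%) and 6 in WT (4.66%). Without Het replicate 1 or Het replicate 2 the 5 became 1, and without WT replicate 2 or WT replicate 3 the 6 became 0. Within 5 kb, the members bound in any library were 2 in Homo, 11 in Het and 17 in WT, where 1.53%, 10.9% and 19% of genes were. The mean number of bound members was 0.333 ± 0.577 in Homo, 4.67 ± 3.51 in Het and 5.67 ± 5.51 in WT libraries (SD, n = 3 each). Over all protein-coding genes the means were 94.7 ± 96.7 bound genes in Homo, 917 ± 635 in Het and 1389 ± 1562 in WT libraries (SD, n = 3 each). The groups overlapped, since Het replicate 3 had 1 bound member, as many as Homo replicate 3, and WT replicate 1 had 0.

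**Figure D4:**
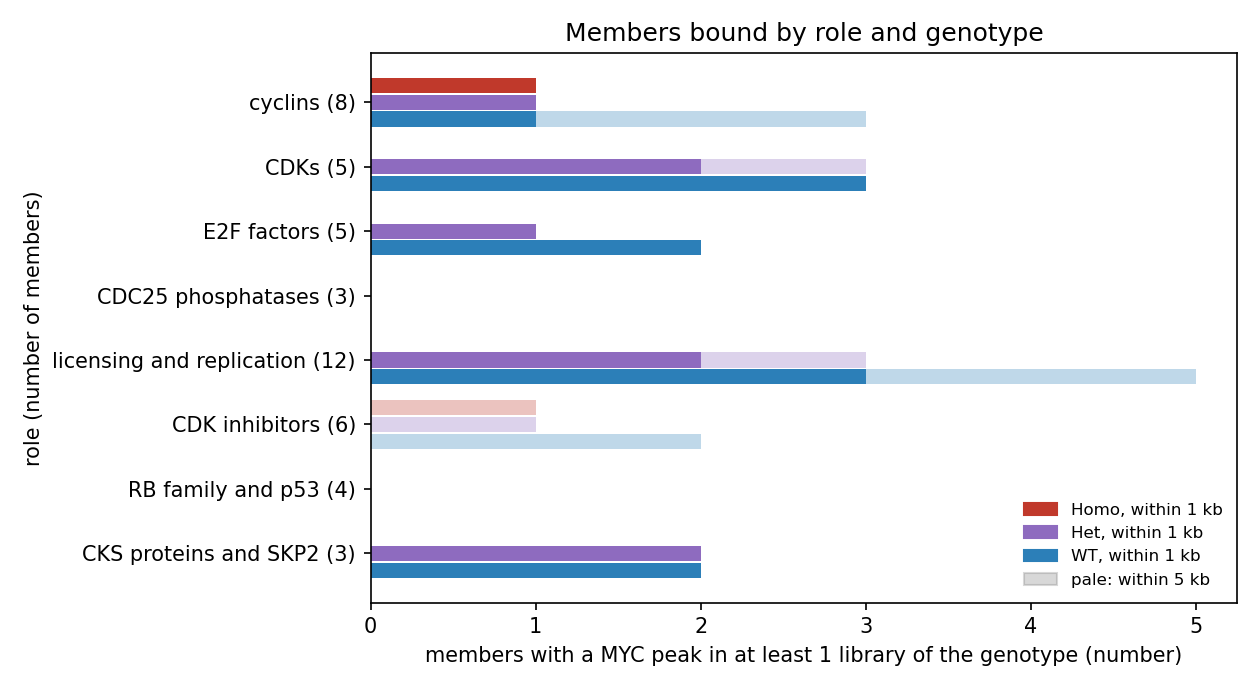
Number of members with a MYC peak in at least 1 library of each genotype (x axis), by role with the number of members in brackets; within each role Homo is on top, then Het, then WT. Full bars count summits within 1 kb and pale extensions those within 5 kb. Homo has a full bar for 1 cyclin, and the CDC25 and RB family rows are empty in every genotype.

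For Homo against WT, 0 members were bound in at least 2 Homo and no WT libraries (0% of genes), and 5 were bound in at least 2 WT and no Homo libraries (3.7% of genes). The 5 were Cdk4, E2f5, Cdt1, Mcm6 and Cks2. They were 0 without WT replicate 2 or WT replicate 3, since WT replicate 1 held none. For Homo against Het, 0 members were bound in at least 2 Homo and no Het libraries (0% of genes), and 4 the other way round (3.04% of genes), namely E2f5, Cdt1, Cks1b and Cks2. These were 0 without Het replicate 1 or Het replicate 2. For Het against WT, 0 members were bound in at least 2 Het and no WT libraries (0.0868% of genes), becoming 1 without WT replicate 3. The other way round there was 1 (0.649% of genes), Mcm6, which became 2 without Het replicate 1 and 0 without WT replicate 2 or 3.

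No gene was called different between the 3 genotypes by a two-sided exact permutation test over the 9 libraries. Of 3262 genes with a peak, 0 passed an adjusted p of 0.05 (Benjamini-Hochberg over all of them) and 0 had an unadjusted p under 0.05, the lowest being 0.143. Among the members the lowest exact permutation p was 0.25, for Mcm6. It was 0.357 for E2f5, Cdt1 and Cks2, and 0.679 for Ccne2, Cdk4 and Cks1b, with an adjusted p of 1 for each. The smallest p that this design allows is 0.0357, and 3 libraries against 3 cannot go below 0.1. For any gene to pass after adjustment, most of the 3262 genes would have to stand at this smallest exact permutation p, 0.0357. The adjusted test could therefore hardly call a gene, and its 0 does not show that the genotypes are alike. Without WT replicate 1 the lowest exact permutation p among the members was 0.0357 and 201 genes had an unadjusted p under 0.05, of which 0 passed after adjustment.

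The absence of a Homo peak was common among genes bound in the other genotypes. Of 4 members bound in at least 2 WT and at least 2 Het libraries (2.94% of genes), Ccne2 alone also had a Homo peak. Over all protein-coding genes 643 met that condition, and 31.1% of them had a peak in any Homo library. Rank in the longest list went with presence in Homo. Of the 429 peaks above percentile 90 of WT replicate 3 by −log10 p, 207 overlapped a Homo peak, against 118 of 1716 between percentiles 50 and 90 and 13 of 2146 in the lower part. The Cdt1 and Cks2 peaks were above percentile 90 and had no Homo peak. The Ccne2 peak of the same list was below percentile 90 and had one. With each list reduced to its 51 strongest peaks, the length of the shortest list, 0 members were bound in at least 2 libraries, where 0.169% of genes were.

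Other genes of the pathway numbered 74. Within 1 kb, 8 of them were bound in at least 2 libraries (10.8%), beside 19.6% of the 46 and 8.03% of all genes. In any library 25 were bound (33.8%), beside 23.9% of the 46 and 14.9% of all genes. The lists thus stood in opposite order under these 2 rules, and the difference between them was not tested. By role these 8 were 1 of 19 origin and helicase factors (Orc3), 2 of 18 replication fork proteins (Pold2 and Rfc5), 1 of 10 mitotic genes (Aurka) and 4 of 27 regulators (Tfdp1, Wee1, Cdkn2d and Atr). Tfdp1, the DNA-binding partner of E2F factors, had a peak in 1 Homo, 2 Het and 2 WT libraries, with folds of 3.04 to 11.9. Wee1, a kinase that restrains CDK1, had a peak in 1 Homo, 2 Het and 2 WT libraries, with folds of 3.96 to 13.0. Aurka, a mitotic kinase, had one in 0 Homo, 2 Het and 2 WT libraries, with folds of 4.86 to 13.9. In Homo tumours 2 of the 74 genes were bound in any library, against 7 in Het and 24 in WT tumours, where 1.03% of all genes were bound in Homo, 7.86% in Het and 14.3% in WT. By the same exact permutation test 0 of them were called different between genotypes. Its p was 1 for Tfdp1 and Wee1 and 0.357 for Aurka, with an adjusted p of 1 for each.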

How the data were processed

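MYC peaks were taken from 9 deposited lists, 1 per MYC library, in the column order that MACS2 writes; no file of the 9 input libraries was used here. Bowtie2 2.2.3, Picard, MACS2 2.0.10.20131216, HOMER and mm10 are named in the submitters' processing notes; no source used here gives the peak limit. Per peak, the authors deposited a fold (ratio) over background, a −log10 p and −log10 q, an integer score and a summit offset. The lists give no counts, so depth and its precision are unknown, and a peak missing from a list is not shown to be absent.

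Summits were set against gene ends of the RefSeq annotation (GRCm38.p6), which gives spans without strand. Starts, strands and promoter sequences came from RefSeq windows, and 1839 of 1839 overlapping windows on opposite strands were reverse complements. Percentiles rank −log10 p within a list. Python 3.11.15 with numpy 2.4.6 and pandas 2.3.3 was used.

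Groups came from the sample titles. Presence per gene was compared between genotypes by a two-sided exact permutation test over 1680 assignments with Benjamini-Hochberg adjustment. The unadjusted p was checked on simulated data. Counts over members have no p. The hepatocyte marker list is not reported here. Alternatives covered the window, stricter limits, list length, the peak interval, gene starts, each library left out and the replicate number as a block. Members with a summit within 5 kb, and pathway genes bound in at least 4 libraries, were named by rule. Mcm10, E2f2 and pathway genes bound in 2 or 3 libraries were named after their values were seen. Members, lists and tests were chosen with earlier results of these data known.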

Additional observations from a re-analysis of the deposited data

How the results depend on the processing

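The number of members bound in at least 2 libraries was 13 within 5 kb (11% of all genes) and 7 within 250 bp (5%). It was also 7 with a −log10 q of at least 5 (6.9%), a fold of at least 5 (6.88%) or a −log10 p of at least 10 (6.16%). The whole peak interval gave 9 (8.24%), and annotated starts gave 8 of 35 (8.71% of genes with a start). The number was 11, 6 and 4 when 1, 3 or 4 libraries were required, where 14.9% and 3.03% of genes met the rules of 1 and 4. With each list as short as the shortest it was 0 (0.169%). The members bound in any Homo, any Het, any WT, at least 2 Het or at least 2 WT libraries were then 0 as well, as were the members bound in 1 genotype only. The members bound in any Homo library numbered 2 within 5 kb, and 0 within 250 bp or with a fold of at least 5. By gene starts the number was 0, but Ccne2, the 1 member bound in Homo, has no annotated start in the table and could not be counted. Within 5 kb, 17 members were bound in any WT and 8 in at least 2 Het libraries, and 7 in at least 2 Het and no Homo libraries. Within 250 bp, 5 were bound in any Het library. Members in at least 2 WT and no Het libraries were 2 within 5 kb, within 250 bp or by gene starts.

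Leaving out each library in turn gave 6 to 9 members bound in at least 2 libraries. The 6 came without WT replicate 3, where 5.15% of all genes met the rule, against 8.03% with all libraries. The omissions gave 0 to 1 members in any Homo, 5 to 8 in any Het and 6 to 11 in any WT library. They gave 1 to 5 in at least 2 Het and 0 to 6 in at least 2 WT libraries. Members in at least 2 WT and no Homo libraries ranged from 0 to 6, in at least 2 Het and no Homo libraries from 0 to 5, in at least 2 Het and no WT libraries from 0 to 1, and in at least 2 WT and no Het libraries from 0 to 2. Leaving out WT replicate 1 and Homo replicate 2 together, chosen after seeing the data, left the 9 members bound in at least 2 libraries at 9.

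The replicate number as a block gave 0 members and 0 genes past the adjusted p of 0.05, as without it. Same-numbered libraries had deviations from their genotype means that correlated between -0.276 and 0.317, over 0.1 in 3 of 9 pairs. Whether they share more than a number cannot be told from bound genes in lists of such unequal length. Of the 9 libraries, 4 had their highest correlation with a library of their own number, and 5 with another. The short lists limit what can be seen in Homo tumours, WT replicate 1 and Het replicate 3, since a peak below the limit of a list is not recorded.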
